A study of Mus musculus with 12 samples.

Results

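The 40 genes described here drive or mark the cell division cycle, and they were taken by name from a fixed list of cell cycle and DNA replication genes. All 40 matched 1 of the 55471 gene IDs of the deposited count table. They fall into 8 genes of G1 and the G1/S step (Ccnd1, Ccnd2, Ccne1, Ccne2, Cdk4, Cdk6, E2f1 and E2f2), 13 genes of DNA replication and nucleotide supply (Mcm2 to Mcm7, Pcna, Cdc6, Cdt1, Gins2, Tyms, Rrm2 and Tk1) and 19 genes of G2 and mitosis (from the cyclins Ccna2, Ccnb1 and Ccnb2 to the transcription factor Foxm1). Whole livers of C57BL/6 mice were profiled by RNA-seq in 4 groups of 3 samples: a standard diet (samples 3, 4 and 5), a MASLD diet (3, 4 and 5), and a MASLD diet with Aza-TdC at 0.1x (1, 3 and 4) or at 1x (2, 4 and 5). MASLD stands for metabolic dysfunction-associated steatotic liver disease, and Aza-TdC is a deoxycytidine analogue that, once built into DNA, traps and depletes the maintenance methyltransferase DNMT1. All 3 MASLD-diet groups share the diet, and the labels give no age, sex, diet composition, dosing schedule or vehicle for any group. Whether each liver came from its own animal is not stated in the labels, and the p-values rest on sample-to-sample spread alone, part of which may be technical.

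A cell in G1 commits to division when D-type cyclins with Cdk4 or Cdk6, and then E-type cyclins, switch off the retinoblastoma proteins and free E2F factors. E2F factors switch on the genes that load and fire replication origins and those that make deoxynucleotides. In G2 a second wave, driven by MuvB complexes with B-Myb and Foxm1 at CHR elements, brings up the cyclins, kinases and motors of mitosis, and the anaphase-promoting complex then removes the cyclins. Adult hepatocytes are mostly resting, so mitosis transcripts in whole liver are rare and can come from hepatocytes or from any other cell of the organ. In whole tissue, more dividing cells and more of a transcript per cell cannot be told apart.

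Libraries held 30213048 (0.1x sample 3) to 41852606 (1x sample 2) counts, and 13866 genes passed the filter on low counts. Levels are given as CPM (counts scaled for library size and TMM factor), and per-sample values follow the order of the sample numbers. Differences are log2 fold changes ± standard error from edgeR's quasi-likelihood test over all 12 samples, adjusted by Benjamini-Hochberg over the 13866 genes, and "rose" or "fell" means an adjusted p under 0.05. Some libraries stood apart. A smooth trend with GC content and transcript length accounted for 23.6% of the variance of gene deviations from the mean of all 12 libraries in 0.1x sample 3. It accounted for 19.9% in 1x sample 2, for 13.3% in MASLD sample 5 and for 0.398% to 9.93% in the other libraries. These deviations include differences between the groups, so removing the trend can also remove part of a group difference. MASLD sample 4 held 149.7 CPM of summed cholangiocyte markers, against 46.3 and 39.5 CPM in the other untreated MASLD-diet samples. Over all libraries most counts of this list were of Spp1 (15372), and no other marker in it passed 554 (Sox9). Hepatocyte markers were at 86102 to 175636 CPM in sum, as the liver label has it.

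Of the 40 members 37 were tested. Cdc6, which loads the replicative helicase, and the mitotic genes Bub1 (a checkpoint kinase) and Cenpe (a kinetochore motor) had at most 16, 10 and 21 counts in any library and failed the filter. Depth differed sharply by stage: 18 of the 19 mitosis members stayed under 100 counts in every library and none exceeded 140, whereas G1 members reached 3037 and replication members 1281 counts. Low-count members can pass such a filter through the group in which they are high, so the counts below describe the members and are no support for a difference of the stage.

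Per kilobase of transcript (RPKM), the leading members in standard-diet livers were Tk1, the salvage enzyme thymidine kinase, at 21.2 ± 5.06 (mean ± SD, n = 3), the replication clamp Pcna at 16.7 ± 2.80 and the G1 kinase Cdk4 at 16.03 ± 1.82 RPKM. The ranges of 1 SD around these 3 means overlapped. Rrm2, the inducible subunit of ribonucleotide reductase, followed at 5.54 ± 1.04, Mcm7 at 3.82 ± 0.265 and cyclin D1 (Ccnd1) at 3.48 ± 0.480 RPKM. On the MASLD diet Ccnd1 stood first at 19.4 ± 2.08 RPKM, then Cdk4 at 16.3 ± 1.06, then Pcna at 13.2 ± 1.61 and Tk1 at 6.22 ± 0.271 RPKM, and here the ranges of 1 SD around the mean did not meet between any neighbours in that order, by a narrow margin for Ccnd1 and Cdk4. No mitosis member exceeded 0.801 RPKM (Cdc20, an activator of the anaphase-promoting complex, on the MASLD diet). Cdk4 shares 19.7% of its exon bases with Tspan31 on the opposite strand, at 267 to 418 CPM. The part of Tspan31 in the Cdk4 level was not tested.

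On the MASLD diet 20 of the 37 tested members rose and 2 fell, which is 54.1% and 5.41% of them, while 29.5% of all genes tested were called, 15.6% higher and 13.9% lower. The share that rose was above that background and the share that fell was below it. Among the G1 members 4 of 8 rose and 0 fell, and their median log2 fold change was 0.69. The 12 tested replication members had a median of 0.41, and 6 of them rose while 2 fell. The 17 tested mitosis members had a median of 1.40, and 10 of them rose while 0 fell. The median over all genes tested was 0.03. The count depended on single libraries: leaving out MASLD sample 4 left 9 members called, standard-diet sample 4 left 10 and MASLD sample 3 left 12, while standard-diet sample 3 left 16 and either sample numbered 5 left 22. Ccnd1, Mcm2, Mcm5, Mcm6, Kif20a, Tpx2 and Tk1 were called at 0.05 in every alternative fit that tested them.

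**Figure D1:**
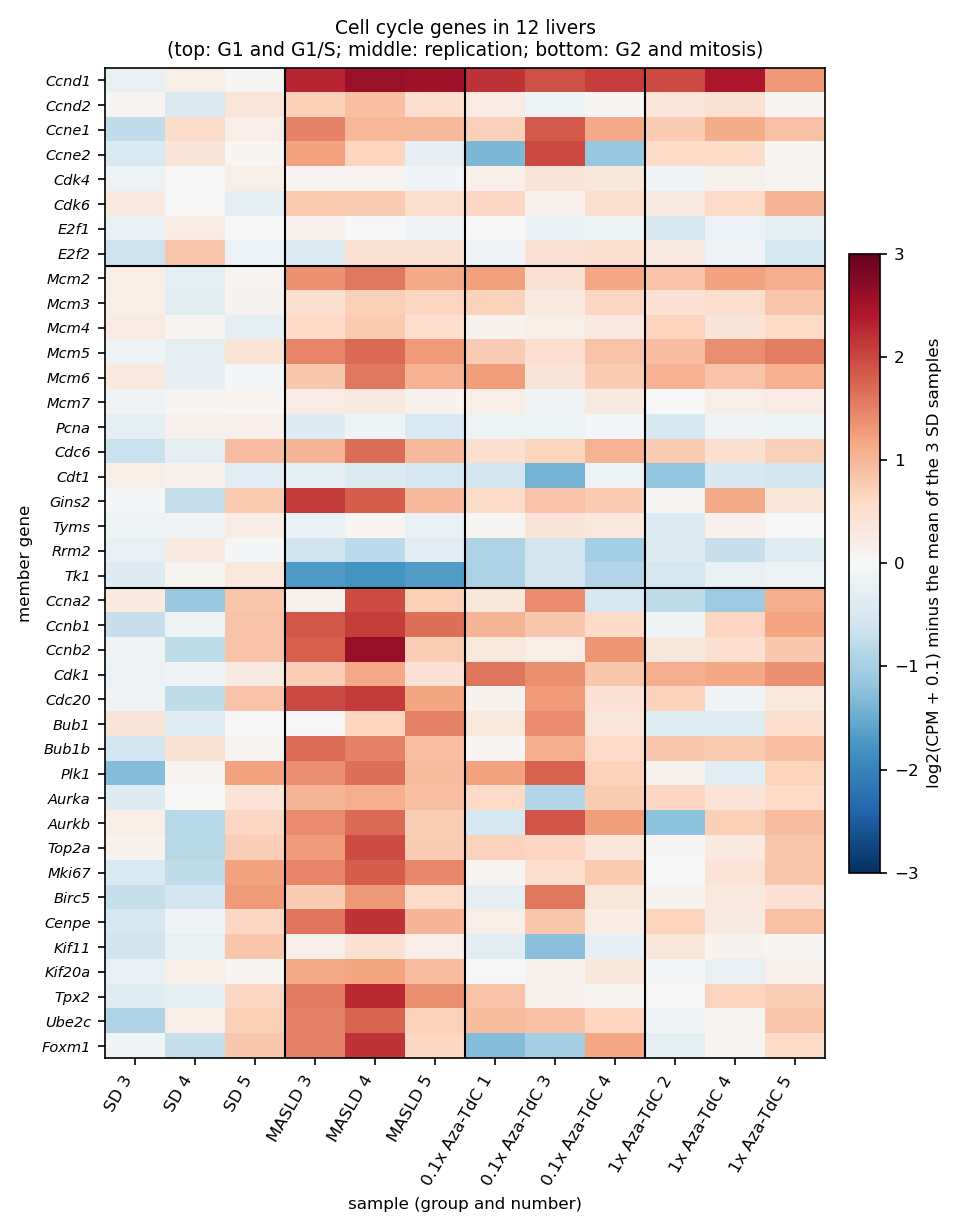
Each row is 1 of the 40 members and each column 1 of the 12 livers; colour gives log2(CPM + 0.1) minus the mean of the 3 standard-diet (SD) samples, and black lines part the stages and groups. Ccnd1 is red in all 9 MASLD-diet livers, Tk1 is bluest in the 3 untreated MASLD-diet livers, and the mitosis rows are reddest in MASLD sample 4, which holds the highest value of 12 of the 19.

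The heat map sets the stages side by side. Among the G1 rows Ccnd1 keeps a raised colour in the treated MASLD-diet livers, as do Mcm2, Mcm5 and Mcm6 among the replication rows, whereas E2f1 and E2f2 are near the standard diet or below it. Standard-diet sample 5 is redder than its group mates in the mitosis rows.

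Among the G1 genes Ccnd1, the D-type cyclin that carries growth signals into the cycle, moved furthest. Ccnd1 was at 11.1, 14.7 and 13.3 CPM on the standard diet, 63.7, 77.9 and 76.5 CPM on the MASLD diet, 58.1, 48.5 and 54.97 CPM at 0.1x and 50.6, 69.6 and 32.2 CPM at 1x. All 9 MASLD-diet livers lay above all 3 standard-diet livers, and the 1x samples were the most scattered. The diet difference was 2.48 ± 0.22 on the log2 scale (adjusted p = 2.0e-06). Ccnd1 shares 23.4% of its exon bases with LTO1 on the opposite strand, which rose by 0.61 ± 0.15 to 11.6 ± 0.497 CPM. The libraries were stranded, but the strand setting of the counting is not given in the sources used here. Whether the counts of such a pair are mixed over the shared bases is therefore not known.

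Ccnd2, a second D-type cyclin, was at 3.79, 2.60 and 4.59 CPM on the standard diet, 5.92, 6.69 and 5.11 CPM on the MASLD diet, 4.22, 3.23 and 3.64 CPM at 0.1x and 4.58, 4.89 and 3.75 CPM at 1x. Ccne1, the E-type cyclin of the G1/S step, was at 1.30, 3.36 and 2.59 CPM on the standard diet, 6.48, 4.62 and 4.50 CPM on the MASLD diet, 3.78, 8.32 and 5.08 CPM at 0.1x and 3.87, 4.97 and 4.20 CPM at 1x. Cdk6, a partner of D-type cyclins, was at 12.2, 10.005 and 8.199 CPM on the standard diet, 17.3, 17.1 and 14.5 CPM on the MASLD diet, 15.5, 10.9 and 14.6 CPM at 0.1x and 12.1, 14.9 and 20.5 CPM at 1x. For these 3 genes the MASLD-diet and standard-diet samples did not overlap. They rose by 0.69 ± 0.21 (Ccnd2), 1.10 ± 0.32 (Ccne1) and 0.68 ± 0.20 (Cdk6) on the log2 scale, with edgeR adjusted p = 0.0225, 0.0182 and 0.0183. Cdk4 (32.9 ± 3.73 against 33.4 ± 2.18 CPM) and the E2F activators E2f1 (4.38 ± 0.674 against 4.37 ± 0.337 CPM) and E2f2 (0.898 ± 0.549 against 0.950 ± 0.318 CPM) differed by less than their spread between the diets (SD, n = 3).

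Ccne2, the other E-type cyclin, rested on 1 library. It was at 0.155, 2.495 and 0.197 CPM in the 0.1x samples, so sample 3 held more than any of the other 11 livers, which lay between 0.155 and 1.42 CPM. With all samples Ccne2 at 0.1x against the MASLD diet gave a log2 difference of 0.04 ± 0.74, and without 0.1x sample 3 it gave −2.38 (edgeR adjusted p = 0.0282). Ccne2 shares 17.4% of its exon bases with Ints8 on the opposite strand, at 8.73 to 12.2 CPM, and Ints8 was not called in any comparison.

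The members whose stage is set by E2F or by MuvB complexes have known promoter elements, so their promoters were read where RefSeq has them (GRCm38.p6, 250 bases before to 50 after the start). Of the 40 members 30 matched. Searched on both strands, the CHR element TTTGAA was in 10 of 14 mitosis promoters (71.4%), in 1 of 11 replication promoters and in 0 of 5 G1 promoters, against 18.1% of all 27025 promoters of that length. The CCAAT box CCAAT was in 13 of 14 mitosis promoters (92.9%) and 7 of 11 replication promoters (63.6%), against 37.9% of all. An E2F-type element, TTTNGCG, was in 5 of 11 replication promoters (45.5%) and 1 of 14 mitosis promoters (7.14%), against 4.24% of all. A match here is a run of letters and no measured binding site. Those of Ccnb2 and Mki67 are shown for the mitosis pattern, those of Mcm5 and Mcm6 for the replication pattern, and that of Tk1 because it moved the other way on the diet. Capitals mark every match to 1 of the 3 motifs.
Ccnb2 (chr9:70421505-70421804, minus strand): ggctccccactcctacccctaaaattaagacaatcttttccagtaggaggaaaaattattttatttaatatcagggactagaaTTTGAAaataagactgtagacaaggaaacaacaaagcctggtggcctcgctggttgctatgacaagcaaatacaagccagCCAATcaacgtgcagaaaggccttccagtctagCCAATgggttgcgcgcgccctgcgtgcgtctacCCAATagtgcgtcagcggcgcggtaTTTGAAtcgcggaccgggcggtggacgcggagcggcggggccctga
Mki67 (chr7:135716330-135716629, minus strand): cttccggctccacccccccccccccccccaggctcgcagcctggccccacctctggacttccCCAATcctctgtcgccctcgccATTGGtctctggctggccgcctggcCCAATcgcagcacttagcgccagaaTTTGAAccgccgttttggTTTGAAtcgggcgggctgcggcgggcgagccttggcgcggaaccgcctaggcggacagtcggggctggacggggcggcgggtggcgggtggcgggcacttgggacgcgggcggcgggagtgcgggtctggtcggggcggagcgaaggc
Mcm5 (chr8:75109259-75109558, plus strand): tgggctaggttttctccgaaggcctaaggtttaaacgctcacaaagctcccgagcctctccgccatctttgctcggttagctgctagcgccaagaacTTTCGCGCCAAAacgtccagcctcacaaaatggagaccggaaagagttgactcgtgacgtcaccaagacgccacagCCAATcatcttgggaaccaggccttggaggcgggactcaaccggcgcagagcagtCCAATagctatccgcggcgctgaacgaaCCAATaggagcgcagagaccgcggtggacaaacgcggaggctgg
Mcm6 (chr1:128359656-128359955, minus strand): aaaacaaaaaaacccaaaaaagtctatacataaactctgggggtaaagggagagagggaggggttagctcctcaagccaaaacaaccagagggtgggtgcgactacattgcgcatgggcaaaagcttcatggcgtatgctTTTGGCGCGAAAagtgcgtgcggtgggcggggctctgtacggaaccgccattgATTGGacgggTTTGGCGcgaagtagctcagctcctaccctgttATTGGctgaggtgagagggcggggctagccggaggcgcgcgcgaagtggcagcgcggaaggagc
Tk1 (chr11:117825965-117826264, minus strand): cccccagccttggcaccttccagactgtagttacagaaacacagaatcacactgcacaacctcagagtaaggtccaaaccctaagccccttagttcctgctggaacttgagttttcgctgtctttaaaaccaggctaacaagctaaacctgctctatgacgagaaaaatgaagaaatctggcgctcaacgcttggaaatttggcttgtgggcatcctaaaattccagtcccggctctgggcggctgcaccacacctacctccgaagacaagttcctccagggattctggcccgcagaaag
In Ccnb2 the CCAAT boxes begin 87, 54 and 21 bases before the start, and 1 of its 2 CHR matches begins at base 5 after it. In Mki67 the CHR matches begin 116 and 98 bases before the start, downstream of 3 CCAAT boxes. In Mcm5 and Mcm6 a pair of E2F-type matches on opposite strands overlap each other, beginning 153 and 148 bases before the start in Mcm5 and 110 and 105 bases before it in Mcm6, and Mcm6 has 1 more at 47 bases. The Tk1 window holds none of the 3 strings of letters, and neither do those of Cdc6 and Tyms among the replication members. Those of Mcm2, which rose on the diet, and of Pcna and Rrm2 hold no E2F-type match either. Cdt1, which was not called on the diet, has 2.

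The MCM subunits build the replicative helicase, and 5 of its 6 subunits rose on the MASLD diet. Mcm2 was at 2.49, 1.74 and 2.30 CPM on the standard diet, 5.64, 6.69 and 4.85 CPM on the MASLD diet, 5.18, 2.99 and 4.95 CPM at 0.1x and 3.97, 5.09 and 4.68 CPM at 1x. Mcm5 was at 0.955, 0.855 and 1.42 CPM on the standard diet, 3.09, 3.67 and 2.68 CPM on the MASLD diet, 1.86, 1.54 and 1.998 CPM at 0.1x and 2.08, 2.93 and 3.25 CPM at 1x. Mcm6 was at 3.31, 2.25 and 2.59 CPM on the standard diet, 4.78, 8.28 and 5.64 CPM on the MASLD diet, 6.57, 3.54 and 4.59 CPM at 0.1x and 5.61, 4.97 and 5.73 CPM at 1x. In all 3 genes every MASLD-diet liver, treated or not, lay above every standard-diet liver. Their diet differences were 1.40 ± 0.23, 1.53 ± 0.26 and 1.20 ± 0.25 on the log2 scale, with edgeR adjusted p = 0.00042, 0.00056 and 0.0025.

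Mcm3 was at 4.37, 3.04 and 4.10 CPM on the standard diet, 5.36, 6.33 and 5.99 CPM on the MASLD diet, 6.20, 4.68 and 5.96 CPM at 0.1x and 5.17, 5.54 and 6.82 CPM at 1x. Mcm4 was at 3.24, 2.82 and 2.21 CPM on the standard diet, 4.20, 4.77 and 3.92 CPM on the MASLD diet, 2.94, 3.08 and 3.37 CPM at 0.1x and 4.39, 3.57 and 4.12 CPM at 1x. Gins2, a subunit of the GINS part of the active helicase, was at 0.307, 0.158 and 0.640 CPM on the standard diet, 1.72, 1.41 and 0.742 CPM on the MASLD diet, 0.527, 0.678 and 0.622 CPM at 0.1x and 0.336, 0.840 and 0.449 CPM at 1x. The diets did not overlap for any of them, and they rose by 0.62 ± 0.18, 0.64 ± 0.18 and 1.78 ± 0.50 on the log2 scale. Gins2 shares 67.3% of its exon bases with Gse1 on the opposite strand, at 13.1 ± 3.91 and 11.7 ± 0.217 CPM on the 2 diets, and Gse1 was not called in any comparison. Mcm7, the sixth subunit, was at 11.3 ± 0.786 against 13.1 ± 0.784 CPM (log2 difference 0.21 ± 0.13, adjusted p = 0.241), and all 3 MASLD-diet samples lay above the standard-diet ones.

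The 2 replication members that fell on the diet, Tk1 and Rrm2, serve nucleotide supply. Tk1 was at 22.8, 31.6 and 37.2 CPM on the standard diet, 9.12, 8.51 and 9.25 CPM on the MASLD diet, 15.4, 20.1 and 16.3 CPM at 0.1x and 20.6, 25.8 and 27.0 CPM at 1x. The untreated MASLD-diet livers held the lowest values of all 12, and neither treated group overlapped them. Tk1 fell by 1.77 ± 0.17 on the log2 scale on the diet (edgeR adjusted p = 5.1e-06). Rrm2 was at 10.3, 14.7 and 11.5 CPM on the standard diet, 7.92, 6.90 and 9.48 CPM on the MASLD diet, 6.42, 8.16 and 5.90 CPM at 0.1x and 9.04, 7.39 and 9.33 CPM at 1x. It fell by 0.58 ± 0.18 (adjusted p = 0.0222), with no overlap between the diets. Pcna (25.3 ± 4.25 against 20.0 ± 2.44 CPM), the licensing factor Cdt1 (4.65 ± 0.857 against 3.49 ± 0.292 CPM) and thymidylate synthase Tyms (7.54 ± 1.10 against 6.97 ± 0.741 CPM) were not called between the diets, with log2 differences of −0.34, −0.41 and −0.12. In sum, where Tk1 and Pcna weigh most, the 13 replication genes were at 90.5 to 114 CPM on the standard diet and 82.8 to 94.7 CPM on the MASLD diet, so the diets overlapped.

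Tk1 lies beside Afmid, the kynurenine formamidase gene of tryptophan breakdown, on the opposite strand, and their exons share 83 bases (1.60% of the Tk1 exon bases). Afmid moved with it. Afmid was at 39.2 ± 2.26 CPM on the standard diet, 16.4 ± 1.38 CPM on the MASLD diet, 19.3 ± 1.25 CPM at 0.1x and 28.4 ± 0.875 CPM at 1x (SD, n = 3). It fell by 1.25 ± 0.11 on the diet and was higher by 0.79 ± 0.10 at 1x than on the MASLD diet alone, while at 0.1x the log2 difference was 0.23 ± 0.10 (edgeR adjusted p = 0.143). The part of the neighbour in the Tk1 counts was not tested.

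**Figure D2:**
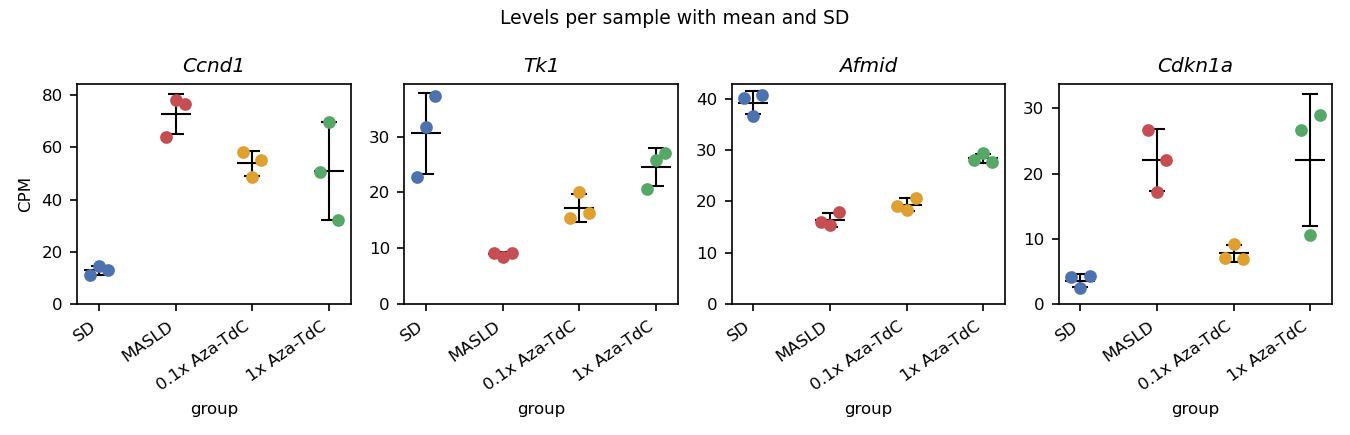
CPM of Ccnd1, Tk1, Afmid and the cell cycle inhibitor Cdkn1a in each liver (points), with the mean and standard deviation of each group (lines). Tk1 and Afmid have their lowest values in the untreated MASLD-diet livers, Ccnd1 stays above the standard diet in every treated liver, and Cdkn1a is at 6.98 to 9.30 CPM at 0.1x but at 10.6 to 29.0 CPM at 1x.

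Among the mitosis genes every member tested had a positive diet difference, from 0.15 (the spindle motor Kif11) to 2.25 (Ccnb1). Kif20a, a motor of cytokinesis, was at 0.409, 0.570 and 0.523 CPM on the standard diet, 1.22, 1.26 and 1.03 CPM on the MASLD diet, 0.496, 0.555 and 0.655 CPM at 0.1x and 0.483, 0.408 and 0.555 CPM at 1x. Tpx2, which activates Aurora A on the spindle, was at 0.171, 0.190 and 0.436 CPM on the standard diet, 0.917, 1.56 and 0.821 CPM on the MASLD diet, 0.527, 0.277 and 0.262 CPM at 0.1x and 0.252, 0.456 and 0.476 CPM at 1x. In both genes the 3 untreated MASLD-diet livers lay above all 9 others. They rose by 1.22 ± 0.32 and 2.02 ± 0.48 on the log2 scale, with edgeR adjusted p = 0.0102 and 0.0058. Kif20a shares 29.3% of its exon bases with Cdc23 on the opposite strand, which stayed at 5.87 to 5.96 CPM in all 4 group means and was not called in any comparison.

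The B-type cyclins activate Cdk1 at mitotic entry. Ccnb1 was at 0.0341, 0.0950 and 0.291 CPM on the standard diet, 0.695, 0.821 and 0.583 CPM on the MASLD diet, 0.341, 0.277 and 0.229 CPM at 0.1x and 0.105, 0.240 and 0.396 CPM at 1x. Ccnb2 was at 0.205, 0.0950 and 0.494 CPM on the standard diet, 1.03, 1.90 and 0.450 CPM on the MASLD diet, 0.310, 0.277 and 0.721 CPM at 0.1x and 0.315, 0.360 and 0.476 CPM at 1x. Cdk1 was at 1.16, 1.23 and 1.60 CPM on the standard diet, 2.28, 3.03 and 1.83 CPM on the MASLD diet, 4.18, 3.64 and 2.42 CPM at 0.1x and 2.94, 3.07 and 3.57 CPM at 1x. Ccnb1 and Cdk1 did not overlap between the diets, whereas MASLD sample 5 fell within the standard-diet range for Ccnb2. The log2 differences were 2.25 ± 0.61, 2.05 ± 0.61 and 0.83 ± 0.26, with edgeR adjusted p = 0.0121, 0.0205 and 0.0270. Unlike its cyclins, Cdk1 had its 2 highest values in the 0.1x group.

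Cdc20 was at 0.307, 0.158 and 0.698 CPM on the standard diet, 1.64, 1.77 and 0.901 CPM on the MASLD diet, 0.372, 0.955 and 0.491 CPM at 0.1x and 0.610, 0.312 and 0.449 CPM at 1x. Bub1b, which encodes the checkpoint protein BubR1, was at 0.171, 0.443 and 0.320 CPM on the standard diet, 1.17, 1.00 and 0.636 CPM on the MASLD diet, 0.310, 0.739 and 0.491 CPM at 0.1x and 0.589, 0.576 and 0.634 CPM at 1x. Ube2c, the ubiquitin-conjugating enzyme of the anaphase-promoting complex, was at 0.171, 0.475 and 0.727 CPM on the standard diet, 1.31, 1.59 and 0.715 CPM on the MASLD diet, 0.868, 0.832 and 0.688 CPM at 0.1x and 0.378, 0.432 and 0.793 CPM at 1x. The diets did not overlap for Cdc20 and Bub1b and just overlapped for Ube2c, where standard-diet sample 5 passed MASLD sample 5. These checkpoint and degradation genes rose by 1.86 ± 0.51, 1.57 ± 0.43 and 1.37 ± 0.47 on the log2 scale.

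Top2a, which untangles sister chromatids, was at 0.580, 0.253 and 0.960 CPM on the standard diet, 1.45, 2.36 and 0.980 CPM on the MASLD diet, 0.930, 0.893 and 0.721 CPM at 0.1x and 0.547, 0.672 and 1.03 CPM at 1x. Mki67, the source of the Ki-67 antigen used to score proliferation, was at 0.375, 0.285 and 1.40 CPM on the standard diet, 1.70, 2.18 and 1.67 CPM on the MASLD diet, 0.589, 0.832 and 1.02 CPM at 0.1x and 0.547, 0.768 and 1.06 CPM at 1x. Neither overlapped between the diets, but standard-diet sample 5 lay close to the MASLD-diet range in both. They rose by 1.40 ± 0.45 and 1.41 ± 0.47 on the log2 scale, with edgeR adjusted p = 0.0286 and 0.0363. The members tested but not called on the diet were Ccna2 (1.11), Plk1 (1.27), Aurka (1.09), Aurkb (1.64), Birc5 (0.69), Kif11 (0.15) and Foxm1 (1.71), given as log2 differences with adjusted p from 0.0691 to 0.814. Ccna2 shares 12.5% of its exon bases with Exosc9 on the opposite strand, at 7.92 to 14.9 CPM.

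**Figure D3:**
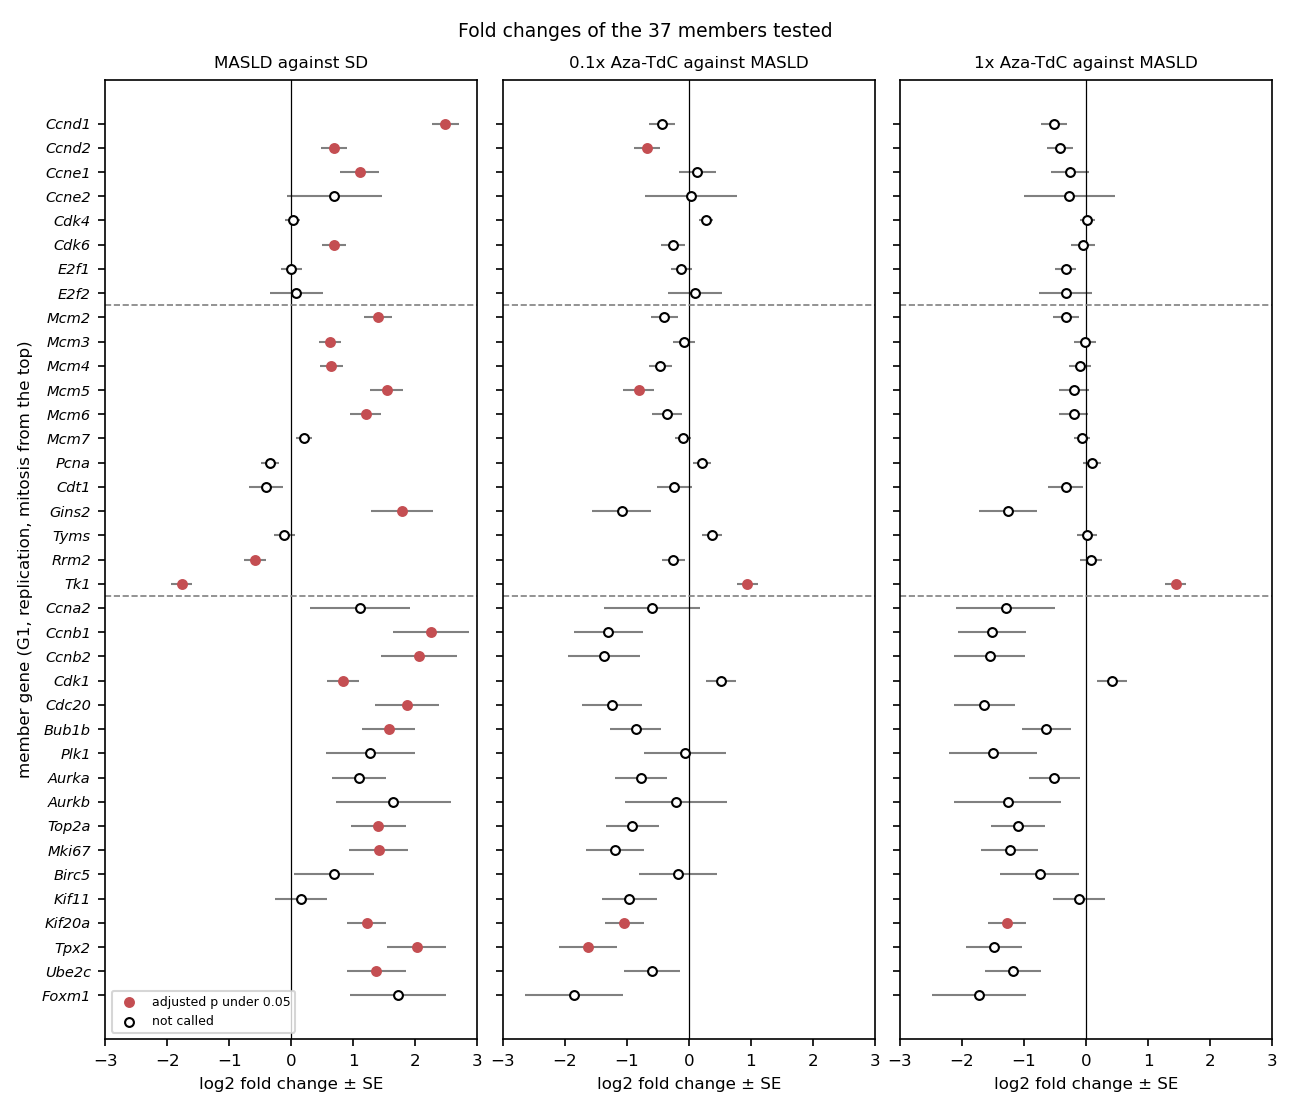
Log2 fold change ± standard error of the 37 tested members (rows, G1 to mitosis from the top) for the MASLD diet against the standard diet and for each dose of Aza-TdC against the MASLD diet alone; filled points have an adjusted p under 0.05. Filled points number 22, 5 and 2, and most mitosis members lie right of 0 in the first panel and left of 0 in the other 2, whose comparisons share the MASLD-diet samples with the first.

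As a group the mitosis genes summed to 5.36, 5.45 and 12.3 CPM on the standard diet, 18.5, 25.3 and 14.02 CPM on the MASLD diet, 11.6, 13.8 and 11.3 CPM at 0.1x and 9.46, 9.93 and 13.4 CPM at 1x. The diets did not overlap, and standard-diet sample 5 was at over the level of its 2 group mates together. The same library led its group in summed markers of B cells (7.27 CPM, against 2.52 and 1.17), of T and NK cells (7.73 CPM, against 6.00 and 3.26) and of monocyte-derived macrophages (42.7 CPM, against 34.4 and 22.4), and their part in its mitosis sum was not tested. The number of mitosis members that rose on the diet was 10 with all samples, 12 without standard-diet sample 5, 4 without standard-diet sample 3, 3 without standard-diet sample 4, 5 without MASLD sample 3 and 3 without MASLD sample 4. Each such fit has 2 samples in 1 group and so less power. The 8 G1 genes summed to 62.5 to 71.2 CPM on the standard diet and 135 to 147 CPM on the MASLD diet.

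**Figure D4:**
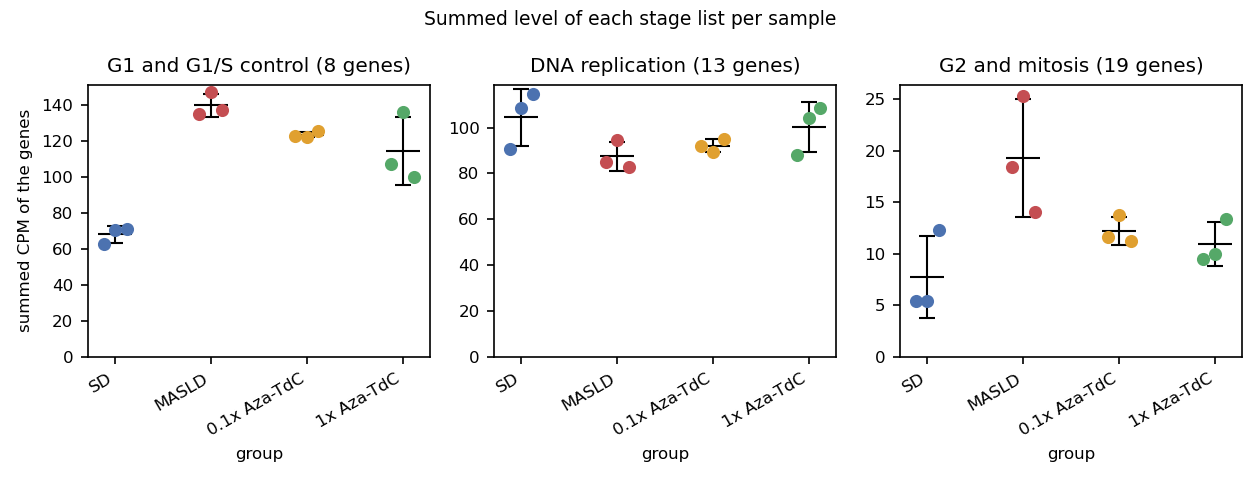
Summed CPM of the 8 G1, 13 replication and 19 mitosis members in each liver (points), with the mean and standard deviation of each group (lines). The G1 sum is above the standard diet in all 9 MASLD-diet livers, the replication sums overlap between groups, and the mitosis sum is highest in MASLD samples 4 and 3.

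Markers of several other liver cells rose on the diet too, and they differed in which samples they peaked in. On the diet 6 of 8 markers of monocyte-derived macrophages rose, as did 5 of 7 of Kupffer cells, 5 of 6 of stellate cells, 4 of 6 of sinusoidal endothelial cells and 3 of 5 tested of cholangiocytes, and 0 of these fell. Of the hepatocyte markers 7 of 8 fell. Of the T and NK cell markers 1 of 8 fell, as did 1 of 5 erythroid markers. Of the B cell markers 0 of 4 and of the tested neutrophil markers 0 of 2 were called. Over all genes tested 15.6% rose and 13.9% fell on the diet. Summed macrophage markers were at 22.4 to 42.7 CPM on the standard diet, 92.9, 115 and 47.3 CPM on the MASLD diet, 71.3 to 95.8 CPM at 0.1x and 31.4 to 49.7 CPM at 1x. Summed cholangiocyte markers were at 12.4 to 23.7 CPM on the standard diet, 39.5 to 149.7 CPM on the MASLD diet, 28.04 to 46.1 CPM at 0.1x and 22.01 to 27.2 CPM at 1x. Summed stellate cell markers were at 110.0 to 124 CPM, 175 to 240 CPM, 142 to 185 CPM and 133 to 155 CPM in the same order. MASLD sample 4 led its group in these 3 sums and in the mitosis sum. Over all libraries Lyz2 (19110 counts) weighed most in the macrophage sum and Dcn (43667 counts) in the stellate cell sum. The mean of log2(CPM + 0.1) weighs each marker alike. For macrophage markers it was 1.60 ± 0.672 on the MASLD diet alone and 0.995 ± 0.361 at 0.1x (SD, n = 3). Other lists had another order: summed Kupffer cell markers were at 113 to 168 CPM on the standard diet, 322, 252 and 220.4 CPM on the MASLD diet, 263 to 301 CPM at 0.1x and 120 to 241 CPM at 1x, with the peak in MASLD sample 3. Summed sinusoidal endothelial markers were at 78.9 to 101 CPM, 127, 133 and 144 CPM, 122 to 131 CPM and 123 to 153 CPM, with the MASLD-diet peak in sample 5. Erythroid and neutrophil markers peaked within the MASLD diet in sample 3 (566 and 1.56 CPM). The neutrophil gene Mpo had 0 counts in every library and Ly6g 3 counts in 1. The part of these cells in the mitosis values was not tested.

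**Figure D5:**
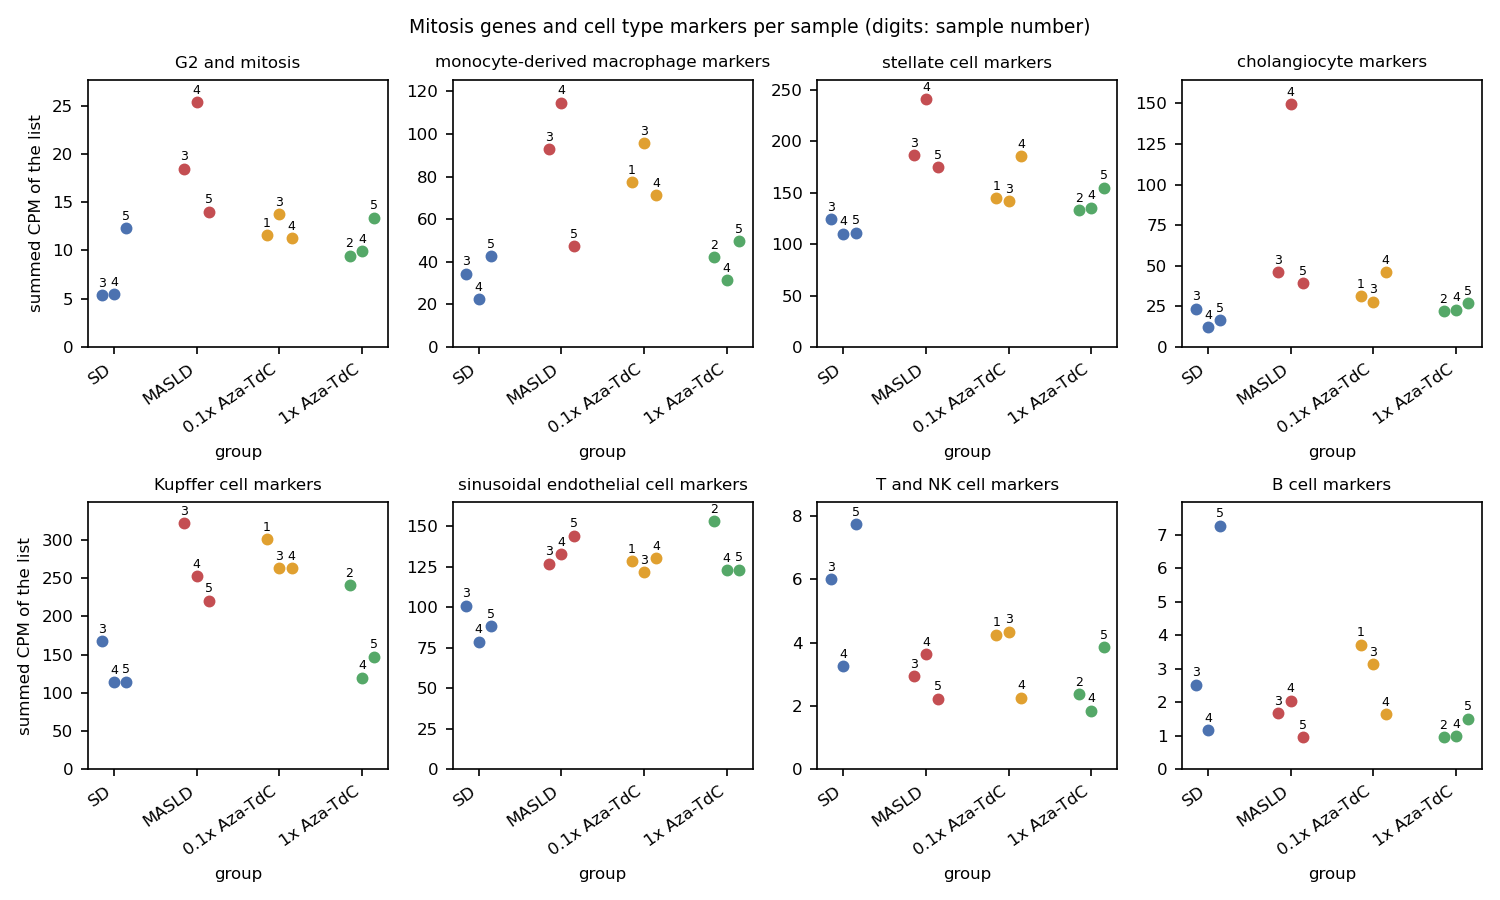
Summed CPM of the 19 mitosis members and of 7 cell type marker lists in each liver; digits are sample numbers. MASLD sample 4 is the highest of all livers for the mitosis, macrophage, stellate and cholangiocyte sums, MASLD sample 3 for the Kupffer sum, 1x sample 2 for the endothelial sum and standard-diet sample 5 for the B cell and the T and NK cell sums.

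Aza-TdC at 0.1x was compared with the MASLD diet alone to see which of these genes the low dose moved. Of the 37 members 1 rose and 4 fell, 2.7% and 10.8%, while 13.2% of all genes tested were called, 6.08% higher and 7.09% lower, so the shares were near the background. Tk1 rose by 0.95 ± 0.17 on the log2 scale (edgeR adjusted p = 0.0090), higher in 3 of 3 samples. Ccnd2 (−0.68 ± 0.21), Mcm5 (−0.80 ± 0.25), Kif20a (−1.04 ± 0.31) and Tpx2 (−1.62 ± 0.46) fell, with adjusted p from 0.0350 to 0.0468, and in each all 3 treated livers lay below all 3 untreated ones. The median log2 difference was −0.04 for G1, −0.24 for replication and −0.91 for mitosis members, against −0.02 for all genes. Leaving out any 1 of the 6 samples left 1 or 2 members called, 1 without each MASLD-diet sample and 2 without each 0.1x sample, and removing each library's trend with GC content and length left 1, Tk1. Ccnd2, Mcm5 and Kif20a lost their call in each of these 6 fits, Tpx2 in 5 and Tk1 in none. Mitosis members that were not called included Ccnb1 (−1.30 ± 0.56), Cdc20 (−1.24 ± 0.49), Mki67 (−1.19 ± 0.47) and Foxm1 (−1.85 ± 0.79), and Cdk1 was at 0.52 ± 0.25. Others differed less in their means at 0.1x and on the MASLD diet alone. Plk1 was at 0.500 and 0.522 CPM, Aurkb at 0.430 and 0.495 CPM and Birc5 at 0.553 and 0.626 CPM.

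At 1x, against the same MASLD-diet samples, Tk1 rose by 1.45 ± 0.17 on the log2 scale (edgeR adjusted p = 0.00063) and Kif20a fell by 1.28 ± 0.31 (adjusted p = 0.0389). That is 1 member up and 1 down of 37, or 2.7% each, while 3.11% of all genes tested were called, 1.49% higher and 1.62% lower, so the shares were near the background. Tk1 was called in all 14 alternative fits, and Kif20a in none of the 6 that left out 1 sample, each of which left 1 member called. The stage medians were −0.30 for G1, −0.08 for replication and −1.27 for mitosis members, and −0.00 for all genes. In 16 of the 17 mitosis members the difference was negative, and most did not pass the test: Ccnb1 was at −1.52 ± 0.55, Cdc20 at −1.64 ± 0.49, Mki67 at −1.23 ± 0.46, Tpx2 at −1.49 ± 0.45 and Foxm1 at −1.73 ± 0.75, with adjusted p from 0.0854 to 0.254. Cdk1 was the member with a positive value, 0.42 ± 0.24. G1 and MCM genes stayed nearer to the untreated MASLD diet, with Ccnd1 at −0.52 ± 0.20, Mcm2 at −0.32 ± 0.22 and Mcm5 at −0.19 ± 0.24.

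Set directly against each other, the doses gave 0 called members of 37 in the edgeR test, while 13.0% of all genes were called, 7.13% higher and 5.86% lower at 1x. By unadjusted p under 0.05 from edgeR 4 of the 37 members passed, 2 in each direction. At that threshold 4211 of all 13866 genes passed, a larger share than among the members. DESeq2 called 1 member, Tk1. Tk1 was higher at 1x in 3 of 3 samples, by 0.50 ± 0.17 on the log2 scale (edgeR adjusted p = 0.0608), and Afmid rose by 0.55 ± 0.10 (adjusted p = 0.0081). Without 0.1x sample 3 edgeR called 2 members, Ccne2 (2.12) and Tk1 (0.63, adjusted p = 0.0419), and Tk1 was also called with no filter on low counts (adjusted p = 0.0073) and after removal of the GC and length trend (0.69, adjusted p = 0.0232). Mcm5 was at 0.61 ± 0.25, Mcm4 at 0.36 ± 0.18 and Kif11 at 0.84 ± 0.44, each with 3 of 3 samples higher at 1x. Plk1, the polo kinase, was at −1.44 ± 0.72 with 3 of 3 lower. Cdk4 also had 3 of 3 lower, at 33.9 ± 2.66 CPM against 40.6 ± 3.95 CPM at 0.1x. None of these genes was called, and the share of all genes without overlap was not computed. The median of the mitosis members was −0.19 and that of the replication members 0.06.

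Both treated groups were also set against the standard diet, and these comparisons share the standard-diet samples with that of the diet. At 0.1x 6 members rose and 2 fell (16.2% and 5.41%, while 20.7% of all genes were called, 9.85% higher and 10.9% lower). At 1x 8 rose and 0 fell (21.6%, while 19.8% of all genes were called, 9.91% higher and 9.84% lower), and without standard-diet sample 5 or 1x sample 5 the count was 5. Ccnd1 rose by 2.05 ± 0.22 at 0.1x and 1.96 ± 0.21 at 1x, and Mcm2 by 1.00 ± 0.23 and 1.07 ± 0.23. Mcm3 (0.55 and 0.61), Mcm6 (0.85 and 1.00) and Cdk1 (1.35 and 1.25) also rose at each dose, Ccne1 at 0.1x (1.24, adjusted p = 0.0636 without 0.1x sample 3), and Mcm4 (0.55), Mcm5 (1.34) and Cdk6 (0.64) at 1x. Cdk1 was the single mitosis member called at either dose. Members called in every alternative fit that tested them were Ccnd1 at 0.1x and Ccnd1, Cdk1, Mcm2 and Mcm5 at 1x. Replication members that rose at 0.1x numbered 3, but 1 without standard-diet sample 4, 1 without 0.1x sample 1 and 0 with a replicate block. Kif20a was at 0.18 ± 0.33 and −0.06 ± 0.33 against the standard diet, Mki67 at 0.22 ± 0.50 and 0.18 ± 0.49 and Tpx2 at 0.40 ± 0.52 and 0.53 ± 0.50, differences about the size of their standard errors or smaller. Tk1 fell by 0.82 ± 0.17 at 0.1x and was at −0.32 ± 0.17 at 1x (adjusted p = 0.192), and Rrm2 fell by 0.83 ± 0.18 at 0.1x and was at −0.50 ± 0.18 at 1x (adjusted p = 0.0574).

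The wider pathway was read from 126 other cell cycle genes, of which 110 were tested: 26 rose and 9 fell on the diet (23.6% and 8.18%, against 15.6% and 13.9% of all genes). Of the 46 other mitosis genes listed 35 were tested, and 15 rose and 3 fell on the diet (42.9% and 8.57% of those tested). Their median log2 difference was 1.04. As among the members, low-count genes can pass the filter through the group in which they are high. The counts therefore describe these genes and are no support for a difference of the stage. The kinetochore subunit Spc25 (1.91 ± 0.23), the centrosomal kinase Nek2 (1.17 ± 0.19) and Ckap2 (3.198 ± 0.62), a microtubule-bound protein, rose with the smallest adjusted p, whereas Spc24 (−0.75 ± 0.18), Cenpm (−2.17 ± 0.57) and the securin gene Pttg1 (−0.43 ± 0.13) fell. Ckap2 and Cenpm were near the floor, so few counts carry their values. On the MASLD diet and the standard diet, Ckap2 means were 0.604 and 0.0616 CPM and Cenpm means 0.192 and 0.888 CPM. Of the 6 fits that left out 1 sample, Cenpm lost its call in 2 and Pttg1 in 3. Spc25 was at 2.32, 3.67 and 3.75 CPM on the standard diet, 12.4, 11.98 and 12.5 CPM on the MASLD diet, 11.3, 19.5 and 14.8 CPM at 0.1x and 9.67, 14.8 and 11.1 CPM at 1x, so it stayed high in every treated liver. Its difference from the standard diet was 2.22 ± 0.23 at 0.1x and 1.86 ± 0.23 at 1x, and its partner in the same NDC80 complex, Spc24, was at −0.82 ± 0.18 and −0.86 ± 0.18.

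Of the other replication genes 4 of 42 tested rose and 2 fell on the diet (9.52% and 4.76%), below the shares of all genes. DNA ligase Lig1 (0.98 ± 0.19), the chromatin assembly subunit Chaf1a (1.10 ± 0.23) and the ribonucleotide reductase subunit Rrm1 (0.70 ± 0.18) rose, and Mcm10 (−0.83 ± 0.16) and the clamp loader subunit Rfc5 (−0.53 ± 0.14) fell. Chaf1a shares 52.5% of its exon bases with Ubxn6 on the opposite strand, at 45.7 to 70.6 CPM. At 0.1x against the MASLD diet, 3 of these genes rose: the licensing inhibitor Gmnn (0.86 ± 0.21), Rpa3 (0.76 ± 0.23), a subunit of the single-strand DNA binding complex, and Rfc5 (0.46 ± 0.14), and these 3 calls were lost without 0.1x sample 3, MASLD sample 4 or MASLD sample 5. With each library's GC and length trend removed, Rpa3 was at 0.11 (adjusted p = 0.778), and Gmnn and Rfc5 were not called. Rfc5 shares 10.7% of its exon bases with Wsb2 on the opposite strand, at 42.9 to 66.6 CPM. Of the other mitosis genes Pttg1 (0.74 ± 0.13) rose at 0.1x. The kinase gene Pbk (−3.63 ± 0.81) and the condensin subunit Ncapd2 (−0.91 ± 0.23) fell there, and without MASLD sample 4 neither of the falls was called. Pbk means were 0.0321 CPM at 0.1x and 0.431 CPM on the MASLD diet alone, so few counts carry its value. Of the other G1/S regulators 5 of 19 tested rose and 2 fell on the diet (26.3% and 10.5%, against 15.6% and 13.9% of all genes). Among them were the repressor E2f8 (1.72 ± 0.29), E2f3 (0.71 ± 0.12) and the E2F partner Tfdp1 (0.54 ± 0.14), with Tfdp2 (−0.60 ± 0.11) and E2f5 (−0.68 ± 0.22, lost in 4 of the 6 fits without 1 sample) lower. E2f8 fell by 1.051 ± 0.28 at 0.1x, a call lost in all 6 fits without 1 sample (edgeR adjusted p from 0.0551 to 0.0824) and after the GC and length correction. It overlaps Gm2788 on the opposite strand over 11.2% of its exon bases, and that transcript was at 6.24 to 30.03 CPM.

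Among 14 tested inhibitors and pocket proteins 2 rose and 2 fell on the diet (14.3% each), near the shares of all genes. Cdkn1a, the p53-responsive inhibitor p21, was at 4.13, 2.44 and 4.33 CPM on the standard diet, 26.8, 17.3 and 22.1 CPM on the MASLD diet, 7.13, 9.30 and 6.98 CPM at 0.1x and 26.8, 10.6 and 29.0 CPM at 1x. The 0.1x livers lay below every other MASLD-diet liver, and 1x sample 4 below its group mates. Cdkn1a rose by 2.60 ± 0.33 on the diet, fell by 1.497 ± 0.31 at 0.1x (edgeR adjusted p = 0.0122) and was at 0.00 ± 0.29 at 1x. At 1x against 0.1x it was higher by 1.502 ± 0.31 (adjusted p = 0.0103, and 0.0628 without 1x sample 2). Rbl1, the pocket protein p107, rose by 1.22 ± 0.41 on the diet, a call lost in 5 of the 6 fits without 1 sample and after the GC and length correction. Gas1 (−0.89 ± 0.17) and the inhibitor Cdkn1b (−0.54 ± 0.15) fell, and Cdkn1b was not called without standard-diet sample 5 or MASLD sample 5. Cdkn2c, an inhibitor of Cdk4 and Cdk6, rose by 0.76 ± 0.21 at 0.1x, and the call was lost in 4 of the 6 fits without 1 sample and with the trend removed. Of the 110 genes tested 5 rose and 4 fell at 0.1x against the MASLD diet (4.55% and 3.64%, against 6.08% and 7.09% of all genes). At 1x 0 rose and 1 fell (0.909%, against 1.62% of all genes lower), the phosphatase Cdc25b at −1.60 ± 0.40, a call lost in 5 of the 6 fits without 1 sample. At 1x against 0.1x 1 rose and 2 fell (0.909% and 1.82%, against 7.13% and 5.86% of all genes).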

How the data were processed

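Liver RNA of 12 samples in 4 groups of 3 was sequenced from TruSeq stranded poly(A) libraries, per the labels' protocols. Reads were aligned with STAR 2.7.3a to mm10, per the submitters' processing notes. The authors deposited raw counts per Ensembl gene for all samples in 1 table. How reads were counted (tool, strand setting, annotation) is not given in the sources used here. No extra columns, 0 in number, lay outside the samples. Groups followed the sample labels, and the 1x sample titled 5 carries the library name 8.

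Genes were named and located with GENCODE vM21 (55230 of 55471 IDs), and 22984 had any count. Libraries held 30213048 to 41852606 counts. Low genes were removed by edgeR's filter by group, leaving 13866 genes. TMM factors and a quasi-likelihood fit over all 12 samples were used (edgeR 4.0.16, R 4.3.3), and an adjusted p under 0.05 was called. Standard errors were derived from each log2 fold change and its F statistic. RPKM used the longest protein-coding transcript, and the heat map and stage means a pseudocount of 0.1 CPM. Promoters came from RefSeq's GRCm38.p6 windows. Figures used matplotlib 3.10.9 under Python 3.11.15. The fit was tested on simulated counts.

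The members, the lists of other cell cycle genes (inhibitors and pocket proteins, G1/S regulators, replication, mitosis), the cell type markers and the tests were chosen with earlier results of these data known. All members are named, and those called in at least 1 comparison, 22 of 40, are given in every sample. Of each other list up to 3 called genes per direction and comparison with the smallest adjusted p were eligible, with Cdkn1a in any case. Alternatives were other scaling factors, other filters, a stricter threshold, DESeq2 1.42.0, a replicate block, only the groups compared, removal of a GC and length trend, and leaving out each sample. Replicates of each group differed by more than sampling noise, with a chi-square per degree of freedom of 15.3 to 104.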

Additional observations from a re-analysis of the deposited data

Results flagged for a closer look

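Of the cell cycle genes named, 3 differed between the doses of Aza-TdC by edgeR's quasi-likelihood test of 1x against 0.1x, over the same MASLD diet. They are 1 higher and 2 lower of the 110 other pathway genes tested (0.909% and 1.82%), below the 7.13% and 5.86% of all genes. Of the 37 members tested 0 were called. Cdkn1a was higher at 1x by 1.502 ± 0.31 on the log2 scale (adjusted p = 0.0103), in 3 of 3 samples. Lin37, a subunit of the MuvB complex, was lower at 1x by −0.56 ± 0.12 (adjusted p = 0.0134), and Pttg1 by −0.54 ± 0.12 (adjusted p = 0.0156). Without 1x sample 2, a library with a strong GC and length trend, their adjusted p were 0.0628, 0.0645 and 0.0887. With each library's GC and length trend removed, those of Lin37 and Pttg1 were 0.101 and 0.125, and with only the groups compared that of Lin37 was 0.0524.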

How the results depend on the processing

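On the MASLD diet the count of 22 called members was 6 at an adjusted p under 0.01 and 13 among genes with a mean of at least 1 CPM, and 9 to 22 with 1 sample left out. At 0.1x against the MASLD diet the count of 5 became 1 at 0.01, 3 with upper-quartile factors, 9 with no filter, 3 at a mean of at least 1 CPM, 1 with the GC and length trend removed, and 1 to 2 with 1 sample left out. At 1x against the MASLD diet the count of 2 became 1 at 0.01, 7 with no filter, 1 at a mean of at least 1 CPM, 5 with only the groups compared, and 1 with any 1 sample left out. Between the doses the count of 0 became 1 with no filter, with the trend removed or with DESeq2, and 0 to 2 with 1 sample left out. Against the standard diet the count of 8 at 0.1x became 5 at 0.01 and 6 to 8 with 1 sample left out, and that of 8 at 1x became 4 at 0.01, 5 with only the groups compared and 5 to 10 with 1 sample left out. Ccne2 changed sign without 0.1x sample 3, to −2.38 against the MASLD diet and 2.12 between the doses, and leaving out the other 0.1x samples gave at most 0.54 and at least −0.81. Apart from the fits named with fewer samples or fewer genes, the cause of these changes was not tested.

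The labels state no pairing of samples by number. Deviations from the group mean of same-numbered standard-diet and MASLD-diet samples correlated at −0.05, −0.12 and −0.17. Over all pairs of groups same-numbered samples were at −0.21 to 0.08 and differently numbered ones at −0.18 to 0.22. With 3 samples a group these values cannot decide whether samples were paired. With a replicate block the counts were 17 on the diet, 0 at 0.1x and 1 at 1x against the MASLD diet, 0 between the doses, and 2 at 0.1x and 5 at 1x against the standard diet. Over all genes the calls ranged from 2254 to 4565 on the diet, 33 to 2460 at 0.1x and 53 to 1131 at 1x against the MASLD diet, and 0 to 2487 between the doses. Mitosis members, under 100 counts in most libraries, limit what 3 samples a group can show.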
